A study of Cricetulus griseus with 9 samples.

Results

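Cholesterol is made from acetyl-CoA by way of mevalonate, isoprenoid diphosphates, squalene and lanosterol. The transcription factor SREBP2, the product of Srebf2, is held in the endoplasmic reticulum while sterol is plentiful and is released to switch on the genes of synthesis and uptake when sterol runs low. Surplus cholesterol leaves the cell through the transporter ABCA1, whose gene is switched on by the oxysterol receptors of the LXR family, and is esterified on lipoproteins by LCAT. Described here are 10 genes of these steps, of 6753 in the table: the synthesis enzymes Hmgcs1, Idi1, Fdps, Sqle, Lss and Msmo1, the regulator Srebf2, the sterol-regulated membrane protein gene Tmem97, and the export genes Abca1 and Lcat. They were picked by name with results of these libraries already known. Their levels, fold changes and counts of calls are therefore given as a description and not as a test. Tests are given for the other genes of the same pathways, although those lists were also drawn up with earlier results of these data known.

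RNA from MI5-4 cells, a subline of Chinese hamster ovary (CHO) cells, was sequenced as mRNA libraries. The 9 libraries made 3 groups of 3. EV was the subline carrying an empty vector, which the design text gives as lacking hexokinase, WTHK2 was the subline labelled as expressing wild-type hexokinase 2, and LAC was EV given 10 mM sodium lactate for 24 h. The design asks which expression changes go with HK2 and which with added lactate. All groups grew in medium with 1000 mg/L glucose and 10% fetal bovine serum, and serum lipoproteins are themselves a source of cholesterol. The labels do not say whether WTHK2 was a clone or a pool, whether the replicates were separate cultures, or whether a sodium control was used. Variation between replicates may therefore be technical, and lactate cannot be told apart from sodium.

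The unit was normalized CPM (reads scaled to an effective library size), and effective sizes ran from 18050959 to 26238659 reads. The 10 genes had between 458 reads (Lcat) and 14998 reads (Sqle) in a library. The table lists no gene with a mean under 20.4 CPM, so a gene missing from it was not analysed here. Hk2, the gene the construct should supply, did not separate the groups: EV had 67.3 ± 2.11 CPM (SD, n = 3), WTHK2 65.3 ± 1.33 and LAC 67.8 ± 2.92. A hexokinase transcript was abundant in the line given as lacking hexokinase: Hk1 was at 324 ± 7.09 CPM in EV against 285 ± 7.63 CPM in WTHK2 (log2 fold change -0.18, limma adjusted p = 3.64e-04) and 302 ± 2.22 CPM with lactate (-0.097, adjusted p = 0.0277). Transcript levels do not show whether the enzyme is active. A transcript of the construct may not be counted under the symbol Hk2, so these values do not show whether the construct was expressed. Since Hk2 did not differ, directions for WTHK2 rest on the label of those libraries. Of markers listed to check the cell type, 4 of 5 mesenchymal genes (Vim, Col3a1, Fn1 and Sparc) were listed, and 0 of 4 epithelial, 0 of 4 leukocyte, 0 of 3 hepatocyte and 0 of 7 ovarian granulosa or theca genes. Mitochondrially encoded transcripts were looked up for 4 genes picked by name, and others were not. The medians of these 4 exceeded EV by 0.40 to 0.73 (log2) in the WTHK2 libraries and 0.45 to 0.80 in LAC. They were highest in the first replicate of each. In bulk RNA, fewer cells with a transcript and less of it per cell cannot be told apart.

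The 6 synthesis enzymes were highest in the libraries labelled WTHK2, and 5 of them were lowest in LAC. Against EV, group means in WTHK2 were higher by 13.2% (Lss) to 60.8% (Idi1). In LAC the change of the mean ran from -30.3% (Hmgcs1) to 10.5% (Fdps). Groups that did not overlap were common in this table, so the separation of a gene is read against that: WTHK2 lay wholly above EV in 26.6% of all genes and LAC wholly above EV in 27.0%. LAC and EV were apart in either direction in 57.8% of genes, and WTHK2 and LAC in 29.0%.

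**Figure D1:**
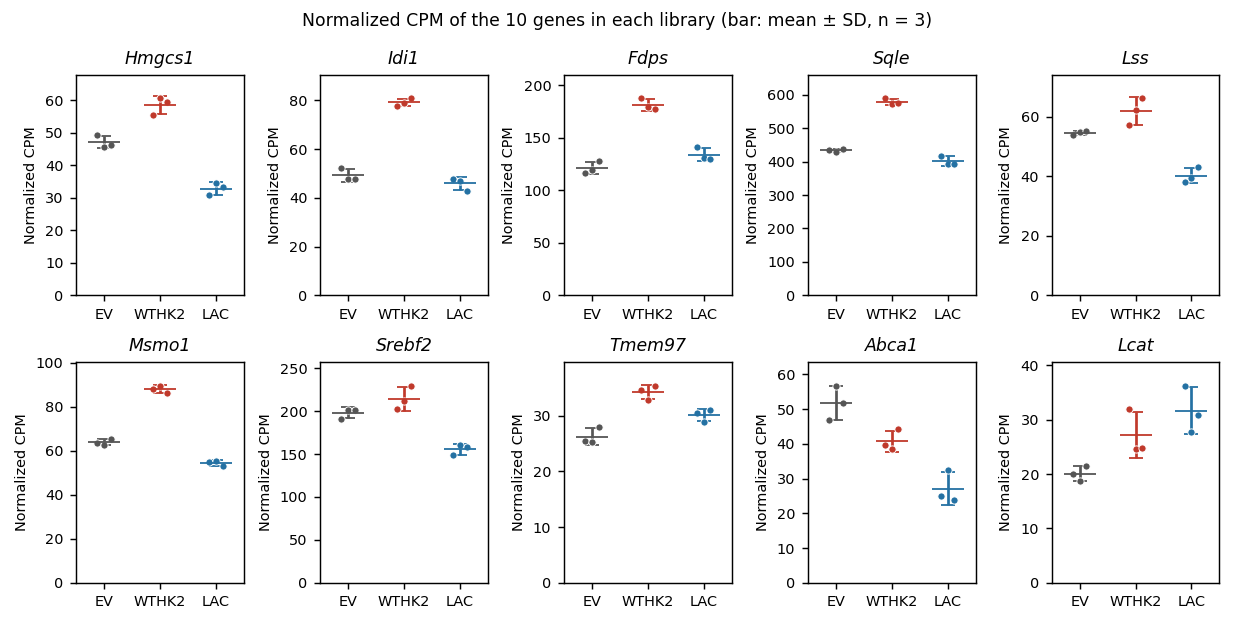
Normalized CPM (vertical axis, from 0) of each of the 10 genes in the 3 libraries of EV, WTHK2 and LAC. Points are libraries and bars are means ± SD (n = 3). The enzyme genes peak in WTHK2, Abca1 is highest in EV (51.8 CPM) and lowest in LAC (27.1 CPM), and Lcat is lowest in EV (20.1 CPM).

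Hmgcs1 codes for the HMG-CoA synthase of the cytosol, an early enzyme of the mevalonate pathway. Its level was 49.3, 45.8 and 46.4 CPM in EV, 55.4, 60.6 and 59.4 CPM in WTHK2, and 30.8, 34.5 and 33.3 CPM in LAC. The 3 groups were fully apart, with LAC lowest and WTHK2 highest. The log2 fold change against EV was 0.30 (SE 0.065) in WTHK2 and -0.51 (SE 0.065) in LAC, which leaves 0.81 (95% interval 0.68 to 0.95) between WTHK2 and LAC.

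Idi1 codes for the isomerase that makes the reactive isoprenoid unit. It stood at 52.3, 47.6 and 47.9 CPM in EV, 77.8, 78.9 and 80.9 CPM in WTHK2, and 47.7, 47.0 and 43.1 CPM in LAC. The WTHK2 libraries were well above the rest, while LAC and EV overlapped. Its log2 fold change of 0.68 (SE 0.060) in WTHK2 was the largest of the 10 genes in that comparison. In LAC it was -0.099 (SE 0.060), with a 95% interval of -0.22 to 0.025. Without LAC replicate 3 the LAC value was -0.054, and without EV replicate 1 it was -0.056. It was -0.058 with library medians equalized and -0.060 after quantile normalization.

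Fdps codes for farnesyl diphosphate synthase, which supplies squalene synthesis and also protein prenylation, dolichol and ubiquinone. Its level was 117, 120 and 128 CPM in EV, 188, 179 and 178 CPM in WTHK2, and 141, 131 and 130 CPM in LAC. Fdps was the only enzyme gene of the 6 with all LAC libraries above all EV libraries. Its log2 fold change was 0.58 (SE 0.047) in WTHK2 and 0.14 (SE 0.047) in LAC.

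Sqle codes for squalene epoxidase, the first oxygen-using step and a control point of the later pathway. It was measured at 434, 428 and 437 CPM in EV, 589, 572 and 576 CPM in WTHK2, and 417, 393 and 393 CPM in LAC. The groups did not overlap, but EV and LAC lay close together. On the log2 scale WTHK2 differed from EV by 0.42 (SE 0.034) and LAC by -0.11 (SE 0.034), and the latter was -0.069 with library medians equalized.

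Lss codes for lanosterol synthase, which closes the sterol rings. It stood at 53.9, 54.8 and 55.2 CPM in EV, 57.1, 62.3 and 66.2 CPM in WTHK2, and 38.1, 39.4 and 43.1 CPM in LAC. Here the difference lay on the lactate side: the log2 fold change was 0.17 (SE 0.065) in WTHK2 and -0.43 (SE 0.065) in LAC. Msmo1 codes for the methylsterol monooxygenase that strips methyl groups from lanosterol products. Its level was 63.6, 62.8 and 65.5 CPM in EV, 88.3, 89.7 and 86.2 CPM in WTHK2, and 54.9, 55.6 and 53.2 CPM in LAC. The 3 groups were apart, with a log2 fold change of 0.45 (SE 0.051) in WTHK2 and -0.23 (SE 0.051) in LAC.

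Srebf2, the gene of the regulator, differed from EV mainly in LAC. Its level was 191, 202 and 202 CPM in EV, 202, 212 and 230 CPM in WTHK2, and 149, 161 and 158 CPM in LAC. The lowest WTHK2 library lay just above the highest EV library, and the LAC libraries were clearly lower than both groups. Against EV its log2 fold change was 0.12 (SE 0.047) in WTHK2 and -0.35 (SE 0.047) in LAC. Without WTHK2 replicate 3 the WTHK2 value was 0.065. Transcript level does not show how much SREBP2 protein was cleaved, and cleavage was not measured here. The reference gene table places the microRNA gene Mir33, known for repressing Abca1, inside Srebf2, and its transcript was not analysed here.

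Tmem97 codes for the sigma-2 receptor, a membrane protein that binds the cholesterol transporter of late endosomes, NPC1. It stood at 25.5, 25.2 and 27.9 CPM in EV, 34.6, 32.9 and 35.4 CPM in WTHK2, and 30.4, 28.9 and 30.9 CPM in LAC. Like Fdps, it was above EV in all libraries of the other groups, with WTHK2 highest. Its log2 fold change against EV was 0.38 (SE 0.072) in WTHK2 and 0.19 (SE 0.072) in LAC.

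Abca1, the exporter, was lower than EV in WTHK2, where the 6 enzymes were higher, and lower again in LAC, where the enzymes were not all on the same side of EV. Its level was 46.9, 56.8 and 51.7 CPM in EV, 39.7, 38.5 and 44.1 CPM in WTHK2, and 24.9, 32.5 and 23.8 CPM in LAC. The groups were apart in the order LAC, WTHK2, EV, with a change of the mean of -21.3% in WTHK2 and -47.7% in LAC. These were log2 fold changes of -0.34 (SE 0.095) in WTHK2 and -0.92 (SE 0.095, 95% interval -1.12 to -0.72) in LAC. In LAC this placed Abca1 at rank 4 from the lowest of 6753 genes. ABCA1 is a very long protein. A list of 91 genes for long proteins was drawn up by hand with the data known, so it cannot show a trend with length. Such a trend was not tested. The median log2 fold change of the list was -0.26 in WTHK2 and -0.28 in LAC (-0.0082 and -0.0035 over all genes). Of these 91 genes, 31 had a lower value than Abca1 in WTHK2, and 0 did in LAC, where the lowest was -0.86. With Abca1 at rank 4 from the lowest of all genes in LAC, the count there was nearly fixed in advance. It cannot show how Abca1 compares with other long genes.

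Lcat, the cholesterol esterifying enzyme that is best known as a liver product, was near the lower end of the table. It stood at 19.9, 18.8 and 21.6 CPM in EV, 32.0, 24.7 and 24.9 CPM in WTHK2, and 36.3, 27.8 and 30.9 CPM in LAC. All libraries of WTHK2 and LAC were above EV, and these 2 groups overlapped each other. The log2 fold change was 0.41 (SE 0.10) in WTHK2 and 0.63 (SE 0.10) in LAC. The first replicate was the highest in each of those groups, as it was for the median of the 4 mitochondrially encoded transcripts. Without these 2 libraries the Lcat values were 0.29 and 0.53. The difference of WTHK2 from LAC was -0.21 (SE 0.10), -0.33 without WTHK2 replicate 1 and -0.12 without LAC replicate 1. In the reference gene order Lcat lies beside Slc12a4, a chloride transporter gene. Slc12a4 did not pass against EV: its mean was 110 ± 5.53 CPM there, 105 ± 5.93 CPM with WTHK2 (adjusted p = 0.312) and 115 ± 4.26 CPM with lactate (adjusted p = 0.249).

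Counted over the 10 genes, 8 passed the threshold as higher and 1 as lower in WTHK2 against EV, where 21.0% of all genes passed as higher and 25.4% as lower (limma, Benjamini-Hochberg adjusted p under 0.05). In LAC against EV, 3 passed as higher and 6 as lower, with 22.4% and 27.1% of all genes (49.5% in either direction). In WTHK2 against LAC, 8 passed as higher and 0 as lower, with 8.37% and 7.76% of all genes. Because the genes were chosen with these comparisons known, the counts describe the choice and are not a test of the 10 genes. The shares over all genes are given for scale, and no conclusion is drawn from the difference. WTHK2 and LAC were each set against the same EV libraries, so those comparisons are not independent.

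**Figure D2:**
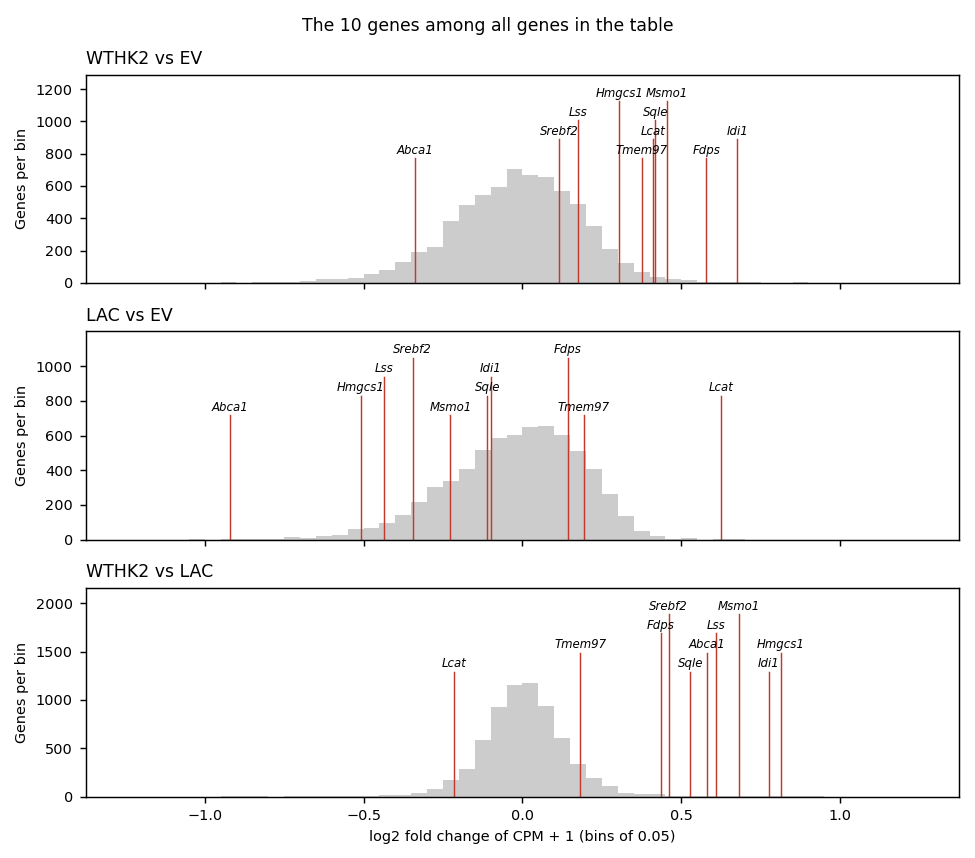
Histograms of the log2 fold change of CPM + 1 over 6753 genes (horizontal axis, bins of 0.05; vertical axis, genes per bin) for the 3 comparisons, with a red line at each of the 10 genes. In LAC against EV, Abca1 (-0.92) and Lcat (0.63) stand at opposite ends, and in WTHK2 against LAC the enzyme genes lie between 0.44 and 0.81.

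The distribution over all genes was narrow, so moderate differences lay far out in it. In WTHK2 against LAC the 6 enzyme genes ranked between 5 (Hmgcs1) and 39 (Fdps) from the highest of 6753 genes. Against EV, Idi1 ranked 16 and Fdps 26 from the highest in WTHK2, whereas Lss ranked 1121. In LAC against EV, Lcat ranked 9 from the highest. The neighbours of the 10 genes in the reference order were compared with them. Over the 7 nearest listed genes on each side, the median log2 fold change in WTHK2 was -0.14 around Idi1 and 0.13 around Fdps, and 0 of 14 neighbours of either reached it. Around Abca1 the median in LAC was -0.17, and the lowest neighbour was at -0.67. Idi1, Fdps and Abca1 were picked with results known and lay among the extremes of all genes in these comparisons. Few genes anywhere could pass them, so the absence of such neighbours says nothing about their surroundings. Several differences lay inside the range of their neighbours. In LAC, 7 and 1 of 14 neighbours were at or above Fdps and Tmem97. There, 2, 8, 6 and 6 of 14 were at or below Hmgcs1, Idi1, Sqle and Msmo1. In WTHK2, 6, 1 and 1 of 14 neighbours were at or above Srebf2, Hmgcs1 and Lss, and 3 were at or below Abca1.

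Among the other genes of the synthesis pathway, for which a test is given, the libraries labelled WTHK2 were mostly higher than EV. Of 13 such genes in the table, 10 were called higher and 0 lower (21.0% and 25.4% over all genes). The remaining 3 also had positive values. The median log2 fold change of the 13 was 0.23, against -0.0082 over all genes tested. The largest rise was that of Fdft1, squalene synthase, from 36.8, 35.5 and 39.1 CPM in EV to 52.3, 54.5 and 52.7 CPM in WTHK2. Its log2 difference was 0.51 (SE 0.064, limma adjusted p = 3.94e-06). Pmvk, phosphomevalonate kinase, rose by 0.47 (adjusted p = 9.83e-05), and Ebp, a sterol isomerase, by 0.41 (adjusted p = 8.25e-05). Cyp51, the lanosterol demethylase, rose by 0.33 (SE 0.047, adjusted p = 1.55e-05). Mvk (0.23), Mvd (0.22) and Nsdhl (0.26) also passed, though Mvk did not without EV replicate 2 (adjusted p = 0.0511), nor Mvd without EV replicate 3 (adjusted p = 0.0545). Dhcr7, which acts at the end of the pathway, was at 0.14, and its call was lost without EV replicate 1, EV replicate 2, WTHK2 replicate 2 or WTHK2 replicate 3 (adjusted p up to 0.116). Lbr (0.056, adjusted p = 0.291), Sc5d (0.12, adjusted p = 0.0618) and Erg28 (0.17, adjusted p = 0.0506) did not pass. Sc5d and Erg28 lay close to the threshold and passed under several alternatives, among them equalized library medians (adjusted p = 0.0182 and 0.0214). With equalized medians 12 of the 13 genes were called higher. The count fell to 8 of 13 without EV replicate 1, and also without EV replicate 2.

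In LAC against EV the same 13 genes split. With 1 called higher and 4 lower (22.4% and 27.1% over all genes), their median was 0.027 beside -0.0035 over all genes. Calls for Sc5d (-0.14) and Lbr (-0.11) were lost with library medians equalized (adjusted p = 0.111 and 0.177), and that of Pmvk (0.22) was lost without EV replicate 2, EV replicate 3 or LAC replicate 3. With library medians equalized, 4 of the 13 were called higher and 2 lower, so the split between directions depended on the scaling. Without EV replicate 2, EV replicate 3 or LAC replicate 3, only 3 of the 13 were called in all. Fdft1 stood at 36.4, 35.2 and 38.6 CPM in LAC, and its difference from EV was -0.014 (SE 0.064, adjusted p = 0.869).

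**Figure D3:**
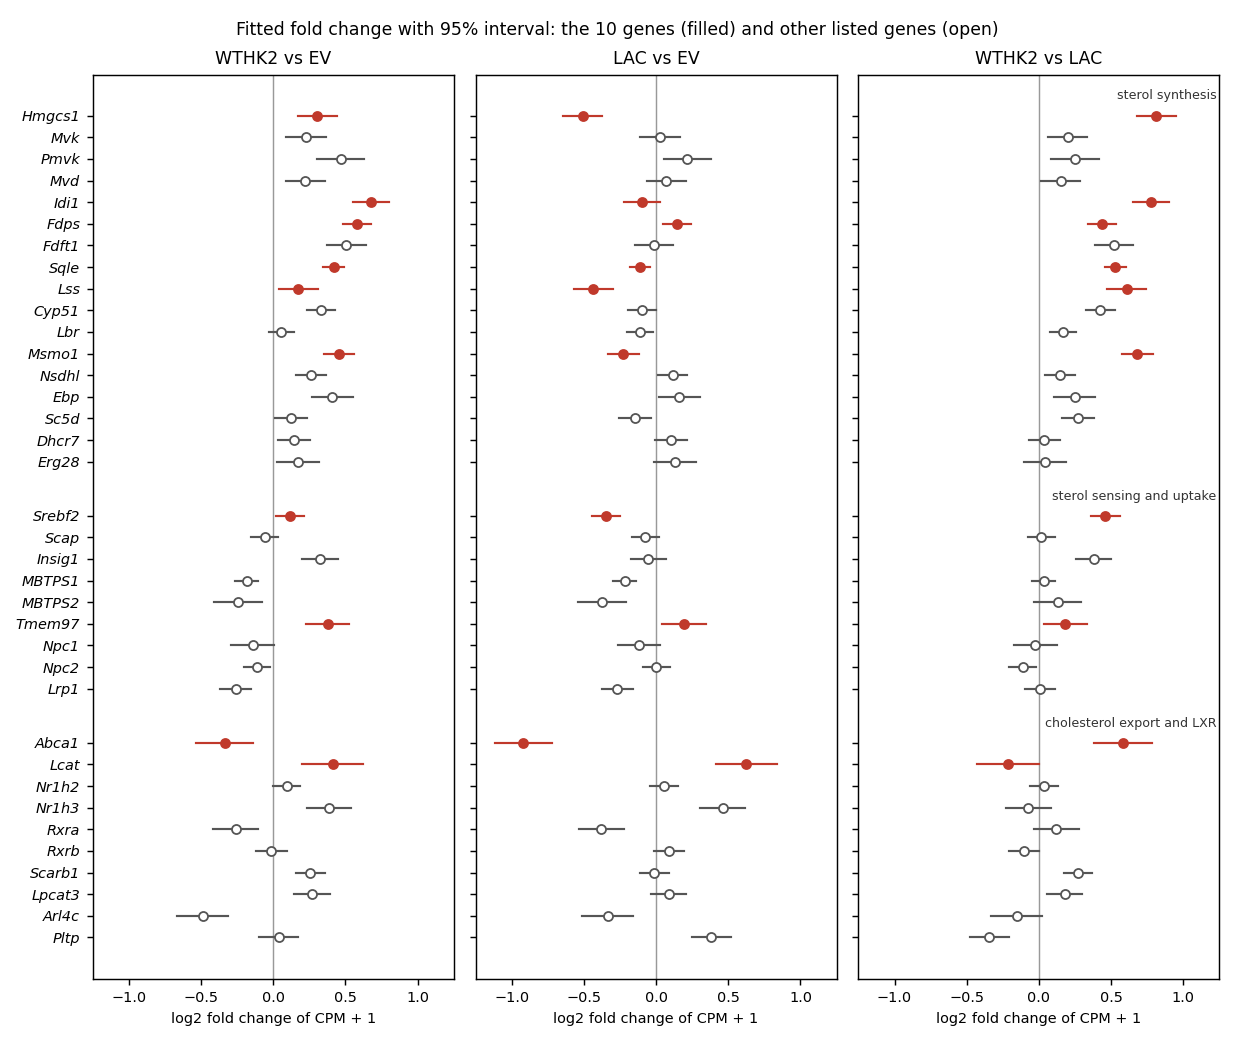
Fitted log2 fold change of CPM + 1 (horizontal axis) with its 95% interval for genes of the synthesis, sensing and uptake, and export lists, in the 3 comparisons (WTHK2 against EV, LAC against EV, WTHK2 against LAC). Filled points are the 10 genes and open points the other listed genes, for example Fdft1 at 0.51, -0.014 and 0.52.

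Set against LAC, WTHK2 was called higher in 10 of the 13 genes and lower in 0 (8.37% and 7.76% over all genes). The median of the 13 was 0.25, beside 0.0041 over all genes. Fdft1 (0.52, SE 0.064, adjusted p = 7.37e-06) and Cyp51 (0.43, SE 0.047, adjusted p = 1.86e-06) were among those that passed. Dhcr7 and Erg28 differed by 0.038 and 0.043 and did not pass. Without LAC replicate 2 the count was 6 of 13, and it was 7 without both first replicates of WTHK2 and LAC.

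Genes of sterol sensing and uptake were called in both directions. Insig1, an SREBP2 target whose product retains SREBP2 in the endoplasmic reticulum, rose by 0.33 in WTHK2 (SE 0.059, adjusted p = 1.81e-04) and was at -0.053 in LAC (adjusted p = 0.468). Scap, the escort of SREBP2, passed in neither (-0.058 and -0.075, adjusted p = 0.299 and 0.170). MBTPS1 and MBTPS2, the proteases that cut SREBP2 free, were lower than EV in both groups: MBTPS1 was at -0.18 and -0.22 (adjusted p = 7.21e-04 and 1.44e-04), and MBTPS2 at -0.25 and -0.37 (adjusted p = 0.0154 and 6.69e-04). The MBTPS2 call in WTHK2 was lost without EV replicate 1 or WTHK2 replicate 1 (adjusted p up to 0.0725). Lrp1, a lipoprotein receptor, was at -0.26 and -0.27 (adjusted p = 3.32e-04 and 2.44e-04). Over the 8 genes of this list beside Srebf2 and Tmem97, 2 were called higher and 4 lower in WTHK2, and 0 and 4 in LAC. The shares over all genes were 21.0% and 25.4% in WTHK2, and 22.4% and 27.1% in LAC. Of 7 genes that govern the breakdown of sterol synthesis enzymes, 0 were called higher and 2 lower in each group against EV. That number of lower calls is near the share over all genes. The lower ones in WTHK2 were Faf2 (-0.16, adjusted p = 0.0126) and Rnf145 (-0.16, adjusted p = 0.0473), and Marchf6 (-0.16, adjusted p = 0.0304) was lower in LAC. Each of these 3 calls was lost when some single libraries were left out.

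Around Abca1, the receptors and targets of the LXR pathway went different ways. Nr1h3, which codes for LXR alpha, rose from 24.6, 25.8 and 23.8 CPM in EV to 34.2, 30.6 and 33.1 CPM in WTHK2 and 35.7, 32.0 and 35.7 CPM in LAC. These were log2 fold changes of 0.39 (SE 0.074, adjusted p = 3.23e-04) and 0.46 (SE 0.074, adjusted p = 5.44e-05), opposite in sign to Abca1. Nr1h2, LXR beta, did not pass (0.092 and 0.057), while Rxra, a partner receptor, fell by 0.26 and 0.38 on the log2 scale (adjusted p = 0.00795 and 3.73e-04). Arl4c, a small GTPase known as an LXR target, was below EV like Abca1, at -0.49 (SE 0.086, adjusted p = 1.28e-04) and -0.33 (SE 0.086, adjusted p = 0.00308). Unlike Abca1, Arl4c was lower in WTHK2 than in LAC (-0.21 to -0.092 over all settings), a difference that did not pass. Pltp, the phospholipid transfer protein and also an LXR target, went with Lcat in LAC: EV had 57.1 ± 4.03 CPM and LAC 74.7 ± 3.95 CPM, a rise of 0.38 (SE 0.065, adjusted p = 8.93e-05), and it was at 0.039 in WTHK2 (adjusted p = 0.651). The difference between WTHK2 and LAC in Pltp was -0.34 (adjusted p = 9.13e-04). Scarb1, a receptor for high-density lipoprotein, rose in WTHK2 by 0.26 (adjusted p = 2.01e-04) and was at -0.012 in LAC. Lpcat3, a phospholipid acyltransferase and LXR target, rose in WTHK2 by 0.27 (adjusted p = 9.78e-04) and was at 0.089 in LAC (adjusted p = 0.216). Of the 8 genes of this list beside Abca1 and Lcat, 3 were called higher and 2 lower in WTHK2, and 2 and 2 in LAC. Most of these counts are near the shares over all genes (21.0% and 25.4% in WTHK2, 22.4% and 27.1% in LAC). Abcg1, Apoe and Mylip, which are well-known LXR targets, were not in the table.

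Within groups, pairs of the 10 genes varied together in some cases and oppositely in others. Across the 9 libraries the 15 pairs of enzyme genes had Pearson correlations of 0.48 to 0.98 (median 0.86), but all libraries share the group differences that chose the genes. After each group mean was subtracted, the same pairs ran from -0.81 to 0.81 with a median of 0.042, and 8 of 15 were positive. Over all 45 pairs of the 10 genes the median was 0.0064, and 23 were positive. These are descriptions over 9 deviations that share libraries and depth. Sqle and Fdps deviated together (0.81), as did Lss and Srebf2 (0.78), whereas Hmgcs1 went against Fdps (-0.81) and Sqle (-0.75). Lcat followed Sqle (0.88) and Fdps (0.82). In the first replicates of WTHK2 and LAC, Lcat was 0.24 and 0.20 above its group mean on the log2 scale, and Hmgcs1 differed by -0.076 and -0.090 from its own. Deviations of some enzyme genes were as large as their smaller group differences: Idi1 deviated by 0.086 in EV replicate 1 and -0.090 in LAC replicate 3, beside a difference of -0.099 between LAC and EV. The per-library median over the 6 enzymes, relative to EV, was 0.42 to 0.45 in WTHK2 and -0.23 to -0.14 in LAC.

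**Figure D4:**
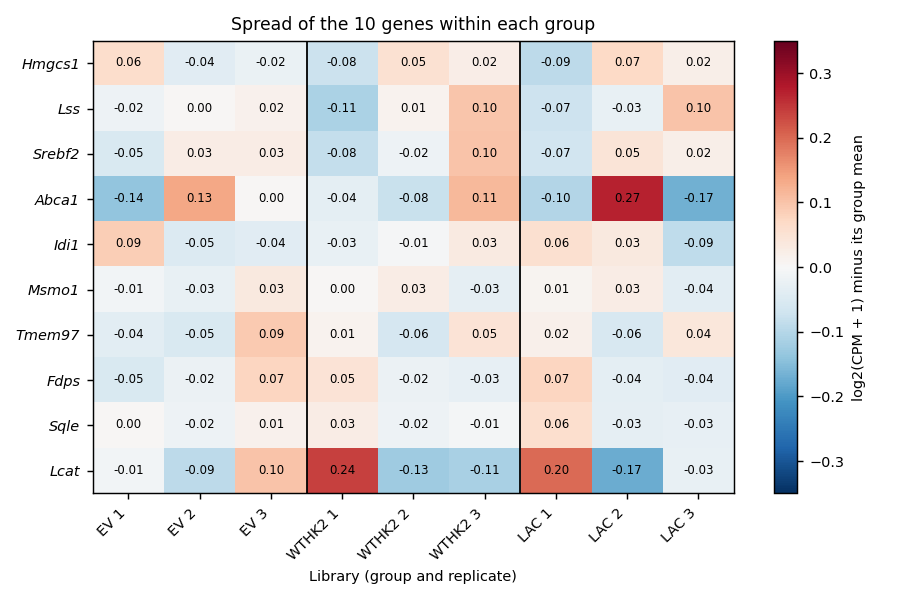
Deviation of log2(CPM + 1) from its group mean for each of the 10 genes (rows) in each of the 9 libraries (columns), with the value printed and coloured from blue (low) to red (high). Lcat is high in the first replicates of WTHK2 (0.24) and LAC (0.20), and Abca1 is high in LAC replicate 2 (0.27).

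By Pearson correlation over the 9 libraries, the genes most like the mean profile of the 6 enzymes, of 6743 others, included 2310022B05Rik (0.991), Med24 (0.987), Cavin1 (0.985) and Dab2 (0.980). Med24 is a Mediator subunit, Cavin1 shapes caveolae, and Dab2 is an endocytic adaptor. In all, 64 genes were above 0.9. Fdft1 (0.945), Insig1 (0.935) and Cyp51 (0.972) were among them, while Pmvk was at 0.649 and Dhcr7 at 0.343. The genes most opposed were Cybc1 (-0.981), Noxa1 (-0.980), Nolc1 (-0.977) and Cars (-0.974). Cybc1 and Noxa1 belong to the NADPH oxidase system, and Noxa1 had a mean of 42.0 ± 1.22 CPM in EV against 26.5 ± 2.73 CPM in WTHK2 and 51.8 ± 2.81 CPM with lactate.

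Among the genes closest to Srebf2 were Tgfbr2 (0.982), Ctnnal1 (0.970) and Map1a (0.968). Tmem97 was closest to Rbpms (0.986), P3h4 (0.983), Uqcrfs1 (0.980) and Cisd3 (0.979), of which Uqcrfs1 is a subunit of respiratory complex III. Abca1 was closest to Sin3a (0.983), Adam23 (0.982), Nid1 (0.981) and Tbc1d22a (0.977). Sin3a is a corepressor scaffold and Nid1 a basement membrane protein, and the mean of Nid1 was 503 ± 20.6 CPM in EV against 437 ± 24.1 CPM in WTHK2 and 374 ± 33.7 CPM with lactate. Lcat was closest to Sap25 (0.996), Cox4i1 (0.995), Sin3b (0.995) and Luc7l (0.983). The 9 libraries share 3 group means, and these likenesses are given as descriptions without a test.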

How the data were processed

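The authors deposited normalized CPM for 6753 genes in 9 libraries, and 0 sample columns were left unused. Per the submitters' processing notes, edgeR 3.8 was used along with FastQC 0.11.8, STAR 2.7.0a, cutadapt 1.18 and featureCounts 2.0.1. Genome build, strand setting and filter: not given in the sources used here. Columns summed to 80.3% to 81.4% of a full CPM total, and 100% of values were whole multiples of a step per library (tolerance 0.01), which gave the effective library sizes.

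Groups came from the labels. All 9 libraries were fitted together on log2(CPM + 1) with limma 3.58.1 (R 4.3.3), a variance trend and no covariates. A minimum mean of 1 CPM removed 0 genes. Calls were two-sided, at an adjusted p under 0.05 (Benjamini-Hochberg, over the 6753 genes). The fit was also run on simulated data in which far fewer genes changed than were called here. That run is therefore not used as support for the calls. Fold changes are on the log2(CPM + 1) scale, which slightly understates those of low genes.

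The 10 genes and 6 pathway lists (98 genes, 72 in the table) were chosen with earlier results of these data known. Besides the 10, genes were named if they were fixed pathway genes, among the 5 smallest adjusted p of a list, or closest by correlation, and other list members were named after their values were seen. Some genes that this rule names are not reported here. Neighbours came from the assembly CriGri-PICRH-1.0, matched by symbol for 6143 genes (91.0%) and used for gene order only. The planned grouping of genes by protein length was not made, and only a list of 91 long proteins made by hand was described. Tables and figures used Python 3.11.15, pandas 2.3.3, numpy 2.4.6 and matplotlib 3.10.9. Alternatives were other pseudocounts, filters, scalings, variance models, voom on the reads recovered from the steps, a replicate block and each library left out.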

Additional observations from a re-analysis of the deposited data

How the results depend on the processing

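Signs of the fold changes of the 10 genes against EV and between WTHK2 and LAC were the same under all 20 alternatives wherever the gene was kept. The median over the 6 enzymes moved beyond its within-group spread with library medians equalized (0.47 in WTHK2 and -0.13 in LAC against EV), with only genes of at least 50 CPM (-0.11 in LAC against EV and 0.61 in WTHK2 against LAC, over 5 enzymes) and with a pseudocount of 4 (0.61 in WTHK2 against LAC), and with single libraries left out it was 0.63 to 0.67 in WTHK2 against LAC. The 50 CPM filter tested 40 of the 62 other pathway genes and called 23 in WTHK2 and 15 in LAC against EV. Without it, 38 and 25 of 62 were called, beside 46.4% and 49.5% of all genes. Genes called in WTHK2 against LAC numbered 1089, and 662 to 1279 with single libraries left out, lowest without WTHK2 replicate 3 (662) and LAC replicate 3 (701). With library medians equalized, 57.3% of calls over all genes were higher in WTHK2 against EV and 58.6% in LAC against EV, beside 45.3% and 45.3%, and of the pathway calls in LAC 13 were higher and 15 lower, beside 6 and 19.

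Replicate numbers are shared between groups. Deviations of same-numbered libraries had correlations over genes from -0.0057 to 0.44, and those of differently numbered libraries from -0.33 to 0.19. Between WTHK2 and LAC, same-numbered libraries were at 0.44 (replicate 1), 0.25 (replicate 2) and 0.073 (replicate 3). EV replicate 3, however, correlated best with LAC replicate 1 (0.18). Whether the numbers mark pairs was not tested, and the main fit did not use them. With the replicate number as a block, 3433, 3609 and 1414 genes were called in the 3 comparisons (3131, 3341 and 1089 without it), and 42, 27 and 21 of the 62 other pathway genes (38, 25 and 19 without it), 12 of the 13 other synthesis genes being higher in WTHK2 against EV (10 without it), with the enzyme medians at 0.44, -0.17 and 0.64. Added after seeing the data, voom on recovered reads called 3191, 3353 and 1097 genes. Apart from voom, count-model fits on recovered reads were not run. Genes under 20.4 CPM were not analysed here, which limits what can be said of low sterol genes.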

Other observations

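Farnesyl and geranylgeranyl diphosphate also feed branches outside sterol synthesis, such as prenylation, dolichol and ubiquinone. Of 15 such genes in the table, 7 were called higher and 2 lower in WTHK2 against EV, and 3 and 3 in LAC against EV. The shares over all genes were 21.0% and 25.4% in WTHK2, and 22.4% and 27.1% in LAC, where the counts are near them. Ggps1, which makes geranylgeranyl diphosphate, rose in both groups, by 0.31 (SE 0.077, limma adjusted p = 0.00299) and 0.30 (SE 0.077, adjusted p = 0.00332). Rabggtb, a subunit of the enzyme that prenylates Rab proteins, rose from 212 ± 6.76 CPM in EV to 245 ± 9.93 in WTHK2 and 246 ± 2.68 in LAC. Icmt, which methylates prenylated proteins, was higher in WTHK2 (0.19, adjusted p = 0.0261) and lower in LAC (-0.22, adjusted p = 0.0121), with a difference of 0.41 (SE 0.068, adjusted p = 2.57e-04) between them. Its call in WTHK2 was lost without any EV library or WTHK2 replicate 3, and that in LAC without LAC replicate 3. Dhdds, of dolichol synthesis, was lower in both groups, at -0.23 (adjusted p = 0.00609) and -0.21 (adjusted p = 0.0108), and the LAC call was lost without EV replicate 3 or LAC replicate 1.

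Genes of cholesterol storage and transfer gave 3 higher and 3 lower calls of 11 in WTHK2, and 0 and 4 in LAC. The counts in WTHK2 are near the shares over all genes (21.0% and 25.4%, and 22.4% and 27.1% in LAC). Osbp, which exchanges sterol for a phosphoinositide at contacts with the Golgi, fell from 96.9, 105 and 102 CPM in EV to 62.0, 65.8 and 71.3 CPM in WTHK2 and 65.4, 78.0 and 71.2 CPM in LAC. These were log2 fold changes of -0.60 (SE 0.064, adjusted p = 3.94e-07) and -0.50 (SE 0.064, adjusted p = 5.15e-06). Lipa, the lysosomal cholesterol ester hydrolase, was at -0.31 (adjusted p = 0.00325) and -0.32 (adjusted p = 0.00193). Soat1, which esterifies cholesterol for storage, was at -0.33 in WTHK2 (adjusted p = 0.00113) and -0.19 in LAC (adjusted p = 0.0355), and the LAC call was lost with library medians equalized (adjusted p = 0.0839) and without several single libraries. Stard3, which moves sterol to late endosomes, rose in WTHK2 by 0.32 (SE 0.051, adjusted p = 5.18e-05) and was at 0.11 in LAC (adjusted p = 0.0756).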
